A study of Mus musculus with 12 samples.

Results

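The effect of YJ1206 on the transcripts of Myc-CaP tumors grown in mice was compared with its effect on the same cell line in culture. Myc-CaP is a mouse prostate cancer line derived from a tumor driven by a human MYC transgene in the prostate, and YJ1206 is a degrader that brings the kinases CDK12 and CDK13 to a ubiquitin ligase. All 12 libraries of the series entered, 3 in each of 4 groups: cultured cells given DMSO, cultured cells given YJ1206 for 24 hours, subcutaneous tumors of male FVB mice given vehicle, and such tumors given YJ1206 by mouth. All 4 groups are therefore 1 cell line, and the tumors also hold cells of an immunocompetent host. The treatment of the tumors lasted longer and was repeated, so that material, duration and route of exposure differ together between the experiments and cannot be told apart. Genes were joined between the experiments by Ensembl identifier without version. Of 34507 genes in both tables, 11307 had enough counts to be tested in both, and the difference of effects was taken for each as the log2 fold change in tumors (YJ1206 against vehicle) minus the log2 fold change in cells (YJ1206 against DMSO).

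CDK12 and CDK13, each with cyclin K, phosphorylate the C-terminal domain of RNA polymerase II during elongation. Loss of CDK12 activity is known for early cleavage and polyadenylation within long genes, among them genes of homologous recombination, and the resulting DNA damage can engage cytosolic DNA sensing and interferon-stimulated genes. Because the degrader acts on protein, the level of the Cdk12 or Cdk13 transcript does not check the treatment.

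Several properties of the libraries bear on every result below. Libraries held 13936902 to 18519926 estimated counts on genes in cells and 15391544 to 26928365 in tumors. The labels do not say that libraries of a group came from separate cultures or mice, and p-values measure only the spread between these libraries. Library numbers of the DMSO and the YJ1206-treated cells come from separate series, so batch and treatment cannot be told apart there, and the labels name polyA RNA for cells and total RNA for tumors although 1 ribosomal RNA depletion protocol is given for both. The third tumor library of each group lay between the first and the second for 98.1% of 3506 genes that differed between those libraries in vehicle tumors, and for 97.6% of 1447 such genes in YJ1206 tumors. For the other tumor libraries the corresponding share was 2.18% to 7.86%, and for cell libraries it was 54.8% to 83.0%. A weighted fit over the 3506 genes placed vehicle library 3 at a fraction of 0.608 of the way from library 2 to library 1. For the 1447 genes of YJ1206 tumors this fraction was 0.366. The tumor test rested on library 3 of each group: edgeR's quasi-likelihood test with Benjamini-Hochberg adjustment called 4177 of 15558 genes with all 6 tumor libraries and 1 gene, Egr1, with libraries 1 and 2 of each group only, where 3068 genes had an unadjusted p under 0.05. The difference of effects rested on them less. It was called for 7004 genes with all 12 libraries and for 6072 without the third tumor libraries, of which 6048 were shared. Tumor standard errors were larger by a median factor of 1.59 without the third libraries. If library 3 of a group was not independent of the other 2, which was not tested, the tumor standard errors and adjusted p-values printed here are too small. Counts of the difference over all genes and over the gene lists are therefore given also without the third tumor libraries, where the tumor effect itself was called for no gene of these lists other than Egr1.

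The cells responded with larger changes than the tumors, and the directions of the responses had little in common across genes. Over the 11307 genes the standard deviation of the log2 fold change was 0.836 in cells and 0.453 in tumors, while the median standard error was 0.0689 and 0.101. In cells 4371 genes (38.7%) were called higher and 4333 (38.3%) lower with YJ1206. In tumors 1478 (13.1%) were called higher and 2172 (19.2%) lower. The difference was called with the tumor effect higher for 3202 genes (28.3%) and lower for 3802 (33.6%), and 2202 of these differences were at least 1 log2 unit. Without the third tumor libraries these counts were 2689, 3383 and 2126. The shares over all genes with all libraries are the background for the counts of gene lists below. Of the 2985 genes called in both experiments, 58.8% moved in the same direction. The Pearson correlation of the effects across the 11307 genes was 0.146, as a description only, since genes of 1 library share its depth and preparation. These splits depended on the scaling between libraries. Of the called differences, 45.7% had the higher tumor effect with TMM scaling, 60.2% with total count scaling and 63.2% with TPM, and the median effect over all genes in cells moved from -0.0089 with TMM factors to -0.18 with total counts and -0.24 on the TPM scale. In tumors the corresponding medians were -0.024, -0.025 and -0.082.

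**Figure D1:**
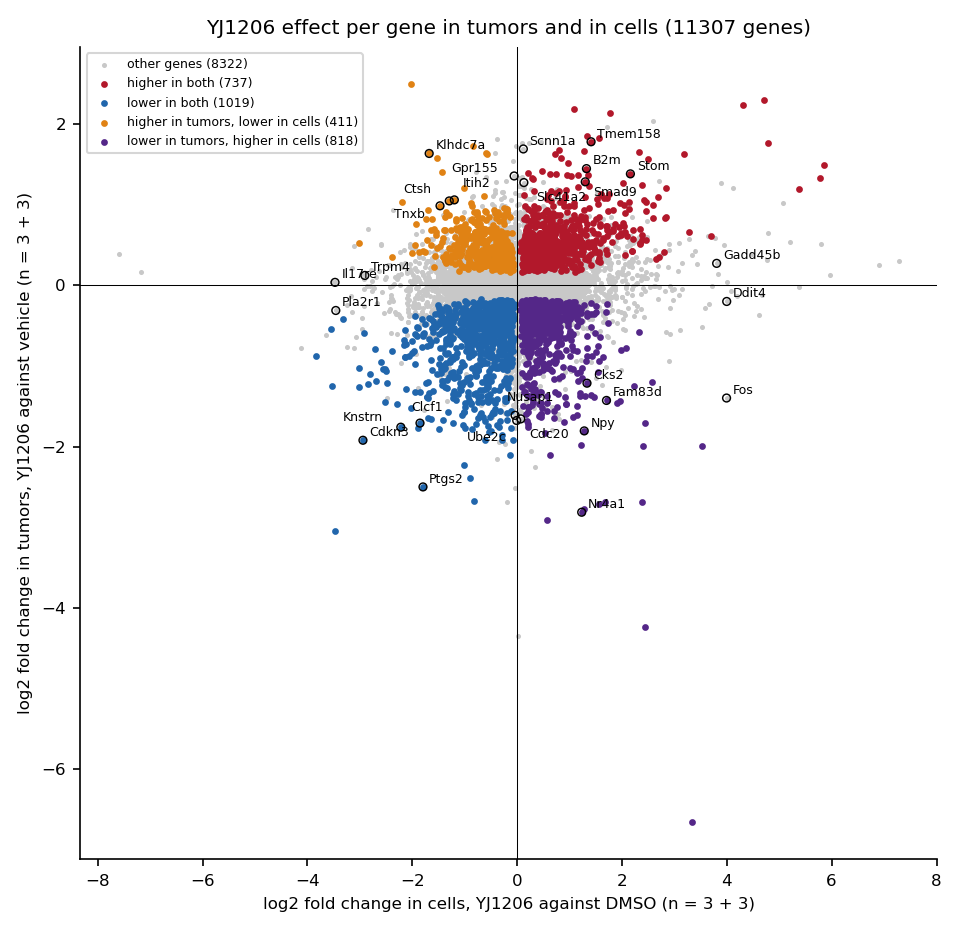
Log2 fold change of every gene tested in both experiments, cells on the x axis and tumors on the y axis, with each point 1 gene; colours mark the 4 classes of genes called in both experiments and circles the named genes. The 737 red and 1019 blue genes moved together, the 411 orange and 818 violet genes moved apart, and the cloud is wider along the cell axis.

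Genes that rose in both materials numbered 737, or 6.52% of those tested, and 40 of them rose by at least 1 log2 unit in each. The class held 328 genes without vehicle tumor library 3, 338 without YJ1206 tumor library 3, 304 to 309 on the TPM scale and 0 with tumor libraries 1 and 2 only. With all libraries its median gene rose by 0.61 log2 units in cells and 0.48 in tumors. Genes are named here and for the other classes only from those with a mean of at least 5 CPM in both materials, and without overlap of treated and control libraries where they were called, so genes of lower level with larger changes are not named. Lack of overlap in a gene named for its class is thus part of the rule and no added support. Over all genes tested, 39.2% were higher and 39.1% lower without overlap in cells, and 22.4% and 28.9% in tumors. By this rule the 4 with the largest change in the material where each changed less were Tmem158, Stom, B2m and Smad9. B2m (ENSMUSG00000060802.8), the invariant light chain of MHC class I, measured 82.6, 75.8 and 77.9 CPM in the DMSO libraries, 191, 189 and 211 in YJ1206-treated cells, 495, 851 and 641.5 in vehicle tumors and 1850, 1765 and 1809 in YJ1206 tumors (CPM, counts scaled to a common library size with TMM factors). Cells and tumors were scaled separately, so a level set across the materials here and below is a description. Treated and control libraries did not overlap in either material, as the naming rule required. SE is the standard error of the fit. The log2 fold change of B2m was 1.32 (SE 0.0439, adjusted p = 4.32e-20) in cells and 1.45 (SE 0.176, adjusted p = 0.00224) in tumors, and the difference was not called (0.12, adjusted p = 0.598). Tmem158, a transmembrane protein, measured 4.77, 6.81 and 6.19 CPM in the DMSO libraries, 14.1, 15.15 and 18.1 in YJ1206-treated cells, 11.4, 18.1 and 16.1 in vehicle tumors and 58.9, 47.7 and 50.6 in YJ1206 tumors. All treated libraries again lay above their controls, by 1.41 and 1.78 log2 units. Smad9, a signal transducer of bone morphogenetic proteins, rose by 1.3 in cells and 1.28 in tumors. Stom, the membrane scaffold protein stomatin, rose more in cells (2.16) than in tumors (1.38), with a difference of -0.78 (SE 0.314, adjusted p = 0.0454) whose call was lost without the third tumor libraries (-0.87, adjusted p = 0.0577).

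Genes that fell in both numbered 1019 (9.01% of those tested), of which 72 fell by at least 1 log2 unit in each, and the median gene changed by -0.55 in cells and -0.51 in tumors. This class held 512 genes without vehicle tumor library 3, 489 without YJ1206 tumor library 3 and 0 with tumor libraries 1 and 2 only. By the same rule the leading genes were Cdkn3, Ptgs2, Knstrn and Clcf1. Clcf1, a cytokine of the interleukin-6 family, measured 84.5, 89.1 and 82.4 CPM in the DMSO libraries, 25.7, 21.6 and 23.4 in YJ1206-treated cells, 77.6, 72.1 and 76.1 in vehicle tumors and 26.2, 21.02 and 21.9 in YJ1206 tumors. Its level fell to nearly the same value in both materials, with log2 fold changes of -1.85 (SE 0.0595, adjusted p = 2.16e-20) in cells and -1.71 (SE 0.09635, adjusted p = 0.00051) in tumors. Cdkn3, a phosphatase that binds cyclin-dependent kinases, measured 17.5, 18.3 and 16.4 CPM in the DMSO libraries, 2.29, 2.26 and 2.23 in YJ1206-treated cells, 8.38, 8.545 and 8.46 in vehicle tumors and 1.15, 3.44 and 2.01 in YJ1206 tumors. The 3 YJ1206 tumor libraries were lower than all vehicle tumor libraries but spread over a wider range than the treated cells. Its log2 fold change was -2.94 in cells and -1.92 in tumors, and the difference of 1.03 (SE 0.353, adjusted p = 0.022) lost its call without the third tumor libraries (1.10, adjusted p = 0.0508). Knstrn, a protein of the mitotic spindle, changed by -2.22 and -1.76. Ptgs2, the inducible cyclooxygenase of prostaglandin synthesis, changed by -1.79 in cells and -2.501 in tumors. The difference for Ptgs2 (-0.71, adjusted p = 0.0221) also lost its call without those libraries (adjusted p = 0.0733).

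Genes that moved in opposite directions numbered 1229. The difference was called for each of them and for 1228 without the third tumor libraries. Calls of opposite sign in the same libraries all but fix this outcome, so it adds no support. In 411 (3.63% of those tested) the transcript rose in tumors and fell in cells, and in 818 (7.23%) it fell in tumors and rose in cells. The counts of both classes depended on scaling and were 696 and 528 when libraries were scaled by their upper quartile, and the second was 483 to 486 on the TPM scale. They were 169 and 431 without vehicle tumor library 3, 170 and 400 without YJ1206 tumor library 3, and 0 and 1 with tumor libraries 1 and 2 only. The first was also 632 without vehicle tumor library 2 and 253 without YJ1206 tumor library 2. Klhdc7a led the first class among genes of at least 5 CPM. It measured 7.43, 7.27 and 8.204 CPM in the DMSO libraries, 2.502, 2.19 and 2.46 in YJ1206-treated cells, 18.7, 17.95 and 19.8 in vehicle tumors and 60.2, 58.9 and 56.25 in YJ1206 tumors. Every treated cell library lay below the DMSO libraries and every YJ1206 tumor library above the vehicle tumors, as the naming rule required. The log2 fold change was -1.68 (SE 0.168, adjusted p = 7.81e-10) in cells and 1.64 (SE 0.0734, adjusted p = 0.000262) in tumors, a difference of 3.31 (SE 0.129, adjusted p = 1.89e-09). Tnxb, the extracellular matrix glycoprotein tenascin X, measured 608, 631 and 632 CPM in the DMSO libraries, 222.5, 224.5 and 228 in YJ1206-treated cells, 913, 563 and 751 in vehicle tumors and 1559, 1380 and 1474 in YJ1206 tumors. Cells and tumors started from similar levels and moved apart by 2.46 (SE 0.174, adjusted p = 1.17e-07) log2 units. Itih2, a hyaluronan-binding heavy chain of the inter-alpha-trypsin inhibitor family, changed by -1.197 in cells and 1.06 in tumors, and Ctsh, the lysosomal protease cathepsin H, by -1.29 and 1.05.

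In the second class of opposite genes were Fam83d, Npy, Nr4a1 and Cks2. Nr4a1, an orphan nuclear receptor of the immediate early response, measured 10.04, 10.6 and 11.2 CPM in the DMSO libraries, 24.3, 24.05 and 26.7 in YJ1206-treated cells, 78.9, 138 and 102.5 in vehicle tumors and 14.5, 16.3 and 14.5 in YJ1206 tumors. Vehicle tumors held far more Nr4a1 than DMSO cells, and the treated libraries of both materials lay between these. The log2 fold change was 1.23 (SE 0.0887, adjusted p = 8.96e-13) in cells and -2.81 (SE 0.203, adjusted p = 0.00063) in tumors, a difference of -4.05 (SE 0.239, adjusted p = 2.73e-08). Fam83d, a protein of the mitotic spindle, measured 34.5, 36.6 and 35.5 CPM in the DMSO libraries, 114, 115 and 119 in YJ1206-treated cells, 14.3, 14.7 and 14.3 in vehicle tumors and 3.06, 7.56 and 5.36 in YJ1206 tumors. It changed by 1.71 in cells and -1.43 in tumors, a difference of -3.12 (SE 0.242, adjusted p = 2.57e-07). Cks2, a subunit of cyclin-dependent kinases, changed by 1.33 and -1.21, and Npy, the neuropeptide Y precursor, by 1.28 and -1.81.

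**Figure D2:**
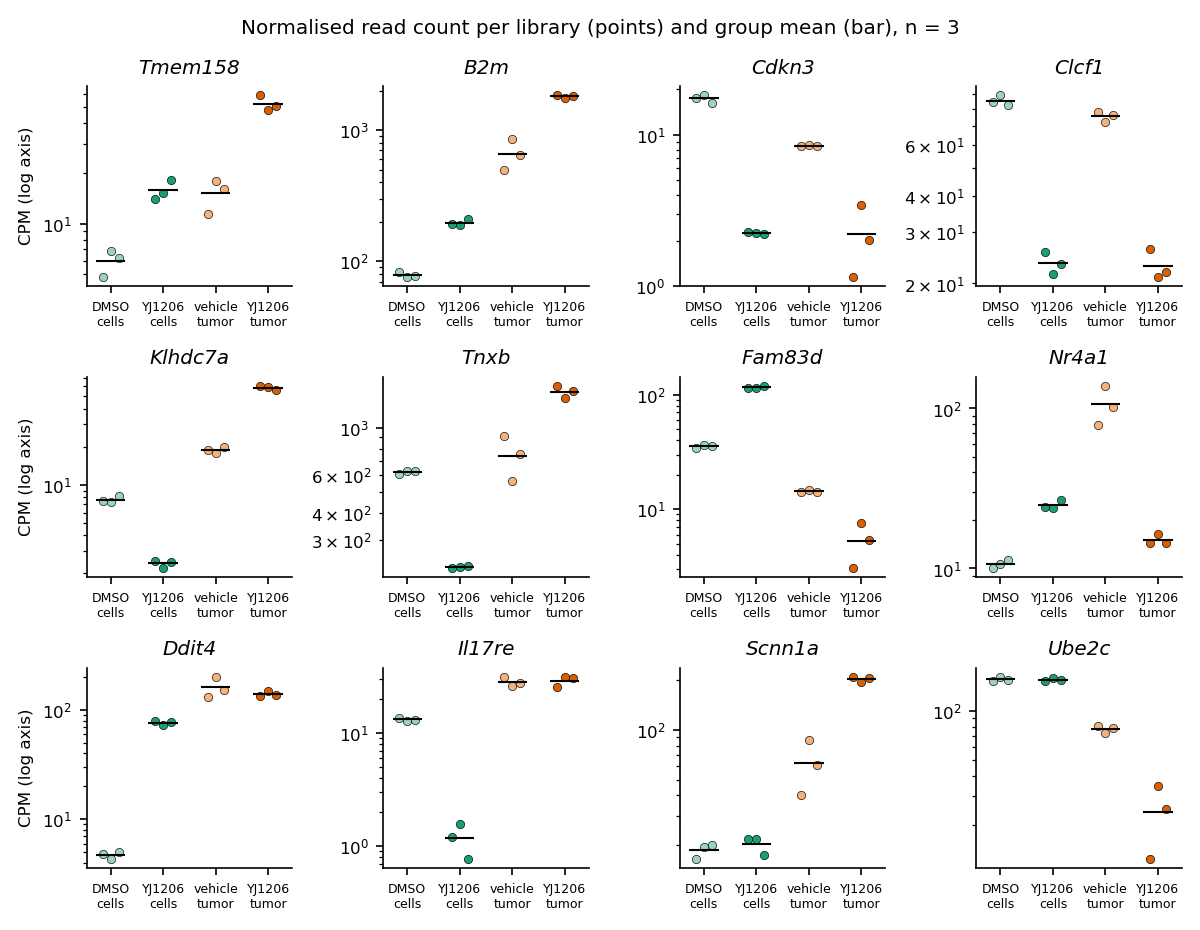
CPM of 12 named genes on log axes in the 3 libraries of each group, with a bar at the group mean. Tmem158 and B2m rose and Cdkn3 and Clcf1 fell in both materials, Klhdc7a, Tnxb, Fam83d and Nr4a1 moved in opposite directions, Ddit4 and Il17re separated in cells, and Scnn1a and Ube2c separated in tumors.

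Other genes were called in 1 material and not in the other, with the difference called. In cells the largest such increases among genes of at least 5 CPM were those of Ddit4, Fos and Gadd45b. Ddit4, an inhibitor of mTORC1 induced by stress, measured 4.87, 4.33 and 5.03 CPM in the DMSO libraries, 78.4, 72.3 and 77.05 in YJ1206-treated cells, 130.0, 199 and 152 in vehicle tumors and 133, 149 and 136.5 in YJ1206 tumors. Treated cells rose towards the level that tumors held with or without YJ1206, by 3.998 (SE 0.0776, adjusted p = 3.79e-25), while the tumor groups overlapped (-0.2 (SE 0.146, adjusted p = 0.353)). The difference was -4.198 (SE 0.197, adjusted p = 5.63e-09). Fos, a subunit of the AP-1 transcription factor, rose by 3.995 in cells and measured 17.2, 120.0 and 58.25 CPM in vehicle tumors, which overlapped the YJ1206 tumors. Gadd45b, a stress-induced regulator of MAP kinase signaling, rose by 3.81 in cells and differed from the tumor effect by -3.54. At the same minimum level the largest decreases were those of Il17re, Pla2r1 and Trpm4. Il17re, a receptor subunit for interleukin 17C, measured 13.8, 12.95 and 13.2 CPM in the DMSO libraries, 1.215, 1.58 and 0.768 in YJ1206-treated cells, 31.4, 26.3 and 27.6 in vehicle tumors and 25.5, 31.25 and 30.75 in YJ1206 tumors. It fell in every treated cell library, with a log2 fold change of -3.47 (SE 0.176, adjusted p = 4.42e-16), and the tumor groups overlapped (0.04, adjusted p = 0.842). Pla2r1, a receptor of secreted phospholipase A2, changed by -3.46 in cells and Trpm4, a cation channel, by -2.904.

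In tumors, again among genes of at least 5 CPM, the largest increases without a call in cells were those of Scnn1a, Gpr155 and Slc41a2, and the largest decreases those of Ube2c, Cdc20 and Nusap1. Scnn1a, the alpha subunit of the epithelial sodium channel, measured 16.4, 19.5 and 20.1 CPM in the DMSO libraries, 21.8, 21.6 and 17.3 in YJ1206-treated cells, 40.5, 87.4 and 61.1 in vehicle tumors and 209, 196 and 207 in YJ1206 tumors. The tumor groups did not overlap (log2 fold change 1.69 (SE 0.243, adjusted p = 0.00362)), the cell groups did (0.12), and the difference was 1.57 (SE 0.302, adjusted p = 0.000577). Gpr155 rose by 1.36 and Slc41a2, a magnesium transporter, by 1.27 in tumors. Ube2c, the ubiquitin-conjugating enzyme of the anaphase-promoting complex, measured 152, 161 and 155 CPM in the DMSO libraries, 151, 159.6 and 154 in YJ1206-treated cells, 80.65, 72.7 and 77.9 in vehicle tumors and 12.3, 34.6 and 25.1 in YJ1206 tumors. All YJ1206 tumor libraries lay below the vehicle tumors, by -1.68 (SE 0.314, adjusted p = 0.00853), and the cell groups overlapped (-0.01). Cdc20, the activator of that complex, changed by -1.66 in tumors, and Nusap1, a spindle microtubule protein, by -1.61.

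The promoter sequences of 1 gene that rose in both materials and of 3 genes of the cell cycle with 3 different patterns are shown to compare them base by base (RefSeq, GRCm38.p6, plus strand, 250 bases before the RefSeq start). Capitals mark GAAANNGAA, the core of the interferon response element, in B2m (chr2:122147437-122147686), and CCAAT, the site bound by NF-Y, or its reverse complement ATTGG in Cdkn3 (chr14:46760291-46760540), Fam83d (chr2:158767849-158768098) and Ube2c (chr2:164769679-164769928).
B2m: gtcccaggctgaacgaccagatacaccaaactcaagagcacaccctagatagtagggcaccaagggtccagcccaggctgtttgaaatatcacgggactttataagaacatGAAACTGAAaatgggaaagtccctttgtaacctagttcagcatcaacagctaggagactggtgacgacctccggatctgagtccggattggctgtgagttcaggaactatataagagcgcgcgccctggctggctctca
Cdkn3: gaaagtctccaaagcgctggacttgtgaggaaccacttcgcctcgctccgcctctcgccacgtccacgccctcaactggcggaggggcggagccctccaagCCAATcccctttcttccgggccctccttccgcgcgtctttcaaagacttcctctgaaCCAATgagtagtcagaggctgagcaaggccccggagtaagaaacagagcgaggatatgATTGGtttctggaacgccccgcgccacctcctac
Fam83d: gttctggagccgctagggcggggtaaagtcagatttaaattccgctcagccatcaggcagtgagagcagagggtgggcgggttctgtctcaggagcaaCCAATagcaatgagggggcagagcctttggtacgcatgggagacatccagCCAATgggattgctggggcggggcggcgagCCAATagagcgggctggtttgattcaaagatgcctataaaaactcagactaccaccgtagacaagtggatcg
Ube2c: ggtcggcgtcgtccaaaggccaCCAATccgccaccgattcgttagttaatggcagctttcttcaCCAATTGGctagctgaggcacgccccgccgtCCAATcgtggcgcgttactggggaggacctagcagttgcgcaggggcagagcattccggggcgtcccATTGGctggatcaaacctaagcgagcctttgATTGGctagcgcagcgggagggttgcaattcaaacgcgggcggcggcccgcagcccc
Each sequence was marked for 1 motif only, and the B2m sequence also holds ATTGG, left in lower case. CCAAT or ATTGG thus does not set the 3 cell cycle genes apart from B2m. The GAAANNGAA motif of B2m began 139 bases before the start. Cdkn3, lower in both materials, held CCAAT 149, 92 and 34 bases before its start; Fam83d, which moved in opposite directions, held it at 152, 102 and 72; and Ube2c, lower in tumors without a call in cells, at 228, 186, 183, 155, 88 and 57, of which the matches at 186 and 183 overlap on opposite strands. Over the genes tested in both, 8862 had a promoter in the table, counted here from 250 bases before to 50 after the start and on both strands. Of these 44.0% held CCAAT and 8.25% GAAANNGAA. Among the 37 mitosis genes with a promoter the share with CCAAT was 75.7%, and among the 18 antiviral interferon-stimulated genes the share with GAAANNGAA was 44.4%. Other lists also held these letters more often than the whole: CCAAT was in 87.5% of 24 sterol and fatty acid promoters, 61.0% of 41 DNA replication promoters and 57.1% of 28 homologous recombination promoters, and GAAANNGAA was in 21.4% of the last and in 21.1% of 57 ribosomal protein promoters. TTTCCCGC, an E2F sequence, was in 19.5% of 41 DNA replication promoters and in 2.53% of all. The 4 classes of genes called in both materials lay nearer to the whole, with CCAAT in 43.9% to 48.9% and GAAANNGAA in 7.85% to 9.10%. A match describes the letters in the window and not a bound site.

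Cell division genes separated the materials as a group. All 47 mitosis genes tested fell in tumors, with Cenpf lowest at -1.92, and the median gene changed by -1.57. In cells 20 rose and 19 fell, near the shares of all genes tested (38.7% and 38.3%). The cell effects ran from Cdc25c (-0.74) to Kif20a (0.94), with a median of 0.052. That cell split depended on scaling, with 13 higher and 27 lower by total counts and 10 higher and 33 lower by TPM, although the list stayed near the median of all genes each time. The tumor effect was called lower than the cell effect for all 47, for 45 without the third tumor libraries, for 44 by total counts and for 41 by TPM. The fall in tumors itself was called for 47 by total counts, 46 by TPM and 0 without the third tumor libraries. Per library, the list median relative to the vehicle mean was -2.25, -1.08 and -1.42 in the YJ1206 tumors, and relative to the DMSO mean 0.0614, 0.0386 and 0.0258 in the treated cells. Aurora kinase A (Aurka) rose by 0.92 in cells and changed by -1.38 in tumors, a difference of -2.30 (adjusted p = 1.12e-06). Of 51 DNA replication genes, 46 fell and none rose in tumors, while in cells 15 rose and 29 fell (8 and 36 by total counts, 3 and 39 by TPM). Cdt1, the replication licensing factor, changed by 1.15 in cells and -1.09 in tumors, and Mcm7, a subunit of the replicative helicase, by 0.84 and -0.73. Pole, the catalytic subunit of DNA polymerase epsilon, fell in both (-1.45 and -1.04). The replication difference was called lower for 32 genes and higher for 3, and lower for 30 and higher for 0 without the third tumor libraries.

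**Figure D3:**
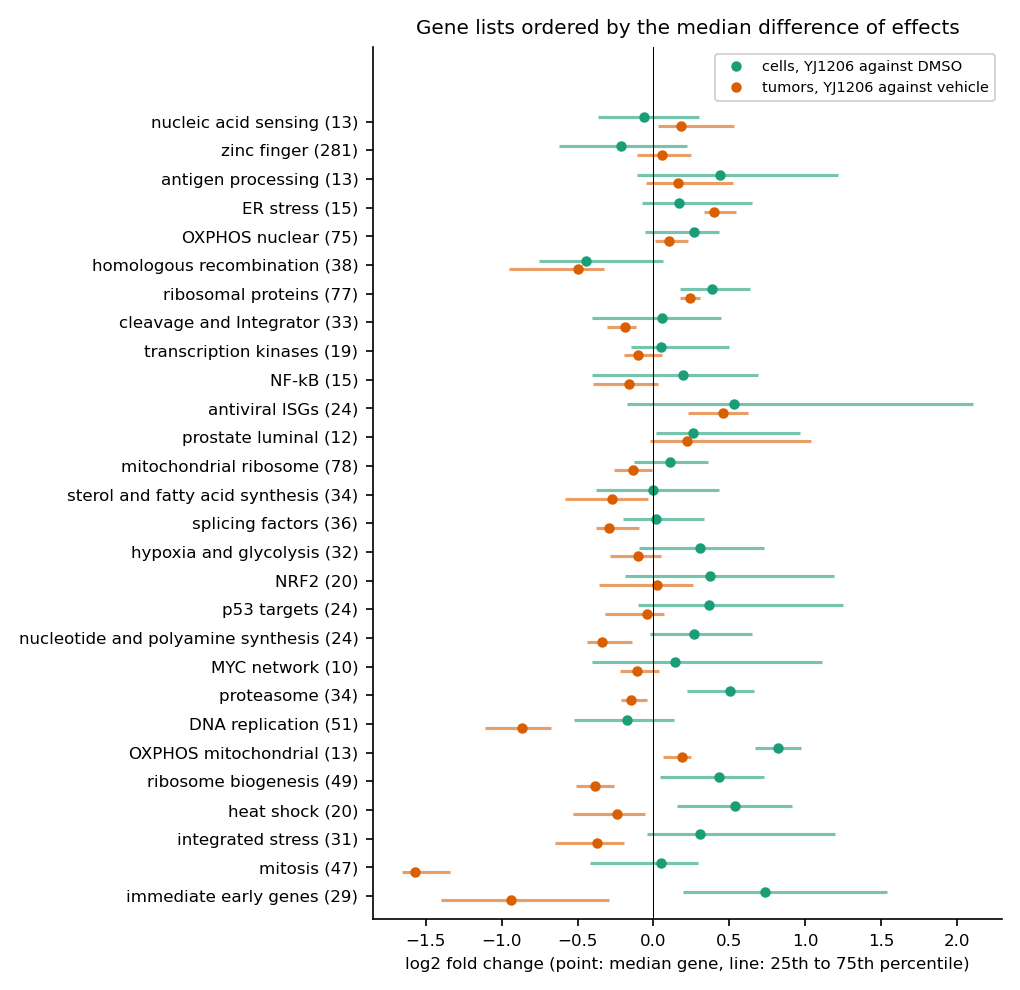
Median log2 fold change (points) and 25th to 75th percentile (lines) of the genes of each list in cells and tumors with TMM scaling, with the number of genes tested in brackets, ordered by the median difference of effects. Immediate early genes (0.74 in cells, -0.94 in tumors) and mitosis genes (0.052, -1.57) lie at one end; the sign of the median difference changes under total count or TPM scaling for transcription kinases, cleavage and Integrator, homologous recombination, NF-kB, ribosomal proteins, nuclear OXPHOS, antiviral ISGs and prostate luminal genes.

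Immediate early genes, which are transcribed within minutes of a growth signal, moved apart. Of 29 tested, 22 rose and 5 fell in cells, and none rose and 18 fell in tumors (12 without vehicle library 3, 10 without YJ1206 library 3). The tumor effect was called lower than the cell effect for 24 and higher for 0, and for 23 without the third tumor libraries. Egr1, a zinc finger transcription factor singled out after its values were seen, measured 1.59, 1.39 and 1.46 CPM in the DMSO libraries, 8.79, 7.39 and 7.84 in YJ1206-treated cells, 221, 219 and 216 in vehicle tumors and 12.6, 10.3 and 11.95 in YJ1206 tumors. It changed by 2.43 in cells and -4.24 in tumors, a difference of -6.67 (adjusted p = 1.30e-11). Egr2, Fosb, Nr4a3, Klf4, Junb, Dusp1 and Atf3 also rose in cells and fell in tumors. Fosl1 fell in both (-0.82 and -2.67), as did Fosl2 (-0.63 and -0.74), so the list was not uniform. The mouse gene Myc, for which reads shared with the human transgene were not separated here, changed by 1.495 (SE 0.0258, adjusted p = 3.23e-26) in cells and -0.59 (SE 0.0632, adjusted p = 0.00167) in tumors. It measured 666, 708 and 689 CPM in the DMSO libraries, 1870, 1951 and 1996 in YJ1206-treated cells, 1256, 1435 and 1319 in vehicle tumors and 895, 866 and 903 in YJ1206 tumors, and no treated library overlapped its controls.

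Many stress response genes rose in cells and fell or were not called in tumors. Of 31 genes of the integrated stress response, 20 rose and 6 fell in cells (15 and 12 with TPM), and 1 rose and 14 fell in tumors, where 23 fell without vehicle library 2, 9 without vehicle library 1, 6 without vehicle library 3, 7 without YJ1206 library 1 or 2 and 5 without YJ1206 library 3. Called differences were lower for 24 and higher for 0, and lower for 22 without the third tumor libraries. Asns, asparagine synthetase and a target of ATF4, measured 172, 174 and 169 CPM in the DMSO libraries, 425, 432 and 447 in YJ1206-treated cells, 203, 168 and 189.9 in vehicle tumors and 112, 129.8 and 121 in YJ1206 tumors. The treated cells rose and the treated tumors fell, with no overlap, by 1.34 (SE 0.0301, adjusted p = 8.83e-24) and -0.63 (SE 0.0871, adjusted p = 0.00325). Atf4 itself changed by 0.57 and -0.59. Nupr1 was the gene of this list that rose in both (1.74 and 0.92). Of 20 heat shock genes, 17 rose in cells and none in tumors, where 7 fell (12 without vehicle library 2, 4 without YJ1206 library 1 or 2, 3 without library 3 of either group). Their difference was called lower for 17, with or without the third tumor libraries. Bag3, a cochaperone of HSP70, rose by 2.08 in cells and had -0.024 in tumors. Of 34 proteasome subunits, 27 rose and 2 fell in cells, and none rose and 9 fell in tumors, where 19.2% of all genes tested fell. There 3 rose without vehicle library 2, and 4 fell without YJ1206 library 1, 3 without YJ1206 library 2 and 2 without library 3 of either group. The proteasome difference was called lower for 26, for 25 without the third tumor libraries and for 22 by TPM, where 3 were higher. The unfolded protein response of the endoplasmic reticulum differed from these lists in that most of its genes rose in tumors. In both materials 6 rose, and 4 rose in tumors and fell in cells. Of its 15 genes, 12 rose and none fell in tumors, 8 rose and 4 fell in cells, and the difference was called higher for 7 and lower for 3, or for 6 and 3 without the third tumor libraries. By total counts 6 rose and 7 fell in cells, by TPM 6 and 6, and without library 3 of either group 8 rose in tumors. Xbp1, its transcription factor, measured 20.1, 22.4 and 20.99 CPM in the DMSO libraries, 8.08, 7.24 and 6.45 in YJ1206-treated cells, 104, 83.5 and 94.3 in vehicle tumors and 146, 148 and 141 in YJ1206 tumors. It changed by -1.54 (SE 0.1035, adjusted p = 2.05e-13) in cells and 0.63 (SE 0.0845, adjusted p = 0.00303) in tumors, and the chaperone Hspa5 rose in both (0.71 and 0.37). Xbp1 had the highest difference of this list (2.17), and Herpud1 the lowest (-1.22, with 1.55 in cells).

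Ribosome genes split by function. Of 49 ribosome biogenesis genes, 34 rose and 9 fell in cells (25 and 18 with TPM), and none rose and 41 fell in tumors, where 26 fell without vehicle library 3 and 25 without YJ1206 library 3. Called differences were lower for 42 and higher for 1, lower for 40 without the third tumor libraries, and lower for 36 and higher for 2 by either total counts or TPM. Nop56, a core protein of box C/D snoRNPs, changed by 1.33 in cells and -0.38 in tumors, and Lyar, a nucleolar protein, by 1.07 and -1.04. Of 77 ribosomal protein genes, 68 rose and 5 fell in cells, and 48 rose and none fell in tumors, 43 of them in both. Their rise in cells depended on scaling, with 51 higher and 16 lower by total counts and 34 higher and 27 lower by TPM. In tumors 32 rose by TPM, 27 without YJ1206 library 2, 16 without vehicle library 3 and 19 without YJ1206 library 3. The direction of their difference turned with the scaling: 13 were called higher and 33 lower with TMM (8 and 30 without the third tumor libraries), 29 higher and 20 lower with total counts, and 37 higher and 17 lower with TPM. Reads of ribosomal protein genes can be shared with processed pseudogenes, and their values are uncertain to that extent. All 13 mitochondrially encoded genes of oxidative phosphorylation rose in cells (median 0.82) and 3 rose in tumors (median 0.19), with the difference called lower for 11, for 10 without the third tumor libraries. None rose in tumors without library 3 of either group. The labels name polyA RNA for cells and total RNA for tumors, and the part of this in the difference was not tested. Of 24 genes of nucleotide and polyamine synthesis, 16 rose and 6 fell in cells (10 and 11 with TPM), and 1 rose and 15 fell in tumors (10 without library 3 of either group), with the difference called lower for 19 with or without the third tumor libraries.

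**Figure D4:**
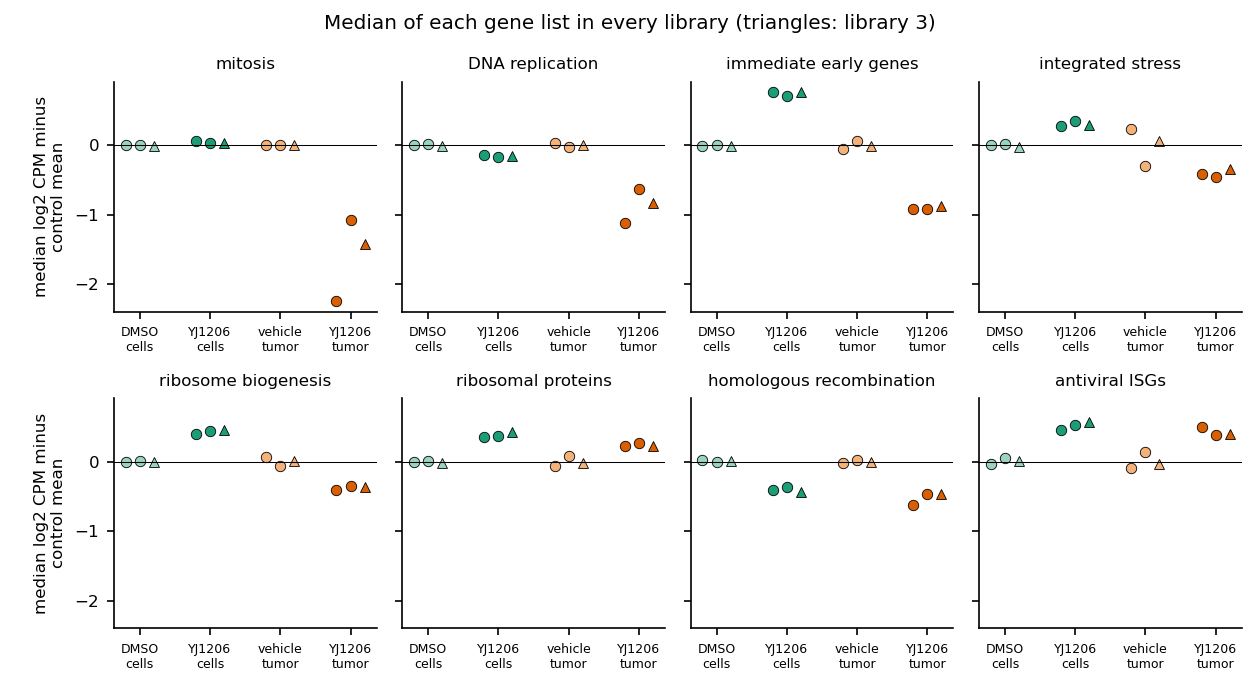
Median over the genes of 8 lists of log2 CPM minus the mean of the controls of the same material, for each of the 12 libraries (y axis, log2 units); triangles are library 3 of a group. Mitosis medians in the 3 YJ1206 tumor libraries are -2.25, -1.08 and -1.42, with library 3 between the others, while homologous recombination is below 0 and antiviral ISGs are above 0 in the treated libraries of both materials.

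Genes of homologous recombination and the Fanconi pathway, which CDK12 is known to sustain, fell in both materials for the larger part. Of 38 tested, 26 fell and 7 rose in cells, 28 fell and none rose in tumors, and 21 fell in both. In cells 27 fell and 2 rose by total counts, and 29 fell and 1 rose by TPM. Brca2, a mediator of strand exchange, changed by -1.86 in cells and -1.33 in tumors, Fancd2 by -1.72 and -1.39, and Eme1, a subunit of a structure-specific nuclease, by -1.70 and -1.40. The effect on Atr, a DNA damage checkpoint kinase, was larger in cells (-1.38 against -0.47), as it was for Fanca (-1.72 against -0.75). The 4 members Exo1, Rbbp8, Chek1 and Nbn rose in cells and fell in tumors, although Exo1 had -0.021 in cells with TPM. The difference was called higher for 9 and lower for 14, near the shares of all genes tested (28.3% and 33.6%). It was called for 7 and 14 without the third tumor libraries, and its median changed sign with scaling (-0.11 with TMM, 0.076 with total counts). Among 19 kinases, cyclins and regulators of transcription, Cdk12 rose in both, by 0.58 (SE 0.0354, adjusted p = 2.26e-14) in cells and 0.35 (SE 0.0701, adjusted p = 0.0108) in tumors, and its difference of -0.23 became 0.00964 with TPM. Cdk13 was called in neither, and Ccnk, cyclin K, rose in cells (0.42) with -0.11 in tumors. Polr2a, the largest subunit of RNA polymerase II, measured 345, 368 and 351 CPM in the DMSO libraries, 669.7, 665 and 659.5 in YJ1206-treated cells, 265, 292 and 270.0 in vehicle tumors and 213.5, 221 and 216 in YJ1206 tumors. It changed by 0.91 in cells and -0.35 in tumors. Hexim1, an inhibitor of P-TEFb, rose by 2.48 in cells and had 0.33 in tumors (adjusted p = 0.0938).

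Antiviral interferon-stimulated genes rose in both materials, in part through different members. Of the 24 tested of 45 on the list, 15 rose and 5 fell in cells, 14 rose and none fell in tumors, and 8 rose in both, among them Ifitm3, Trim21, Lgals3bp, Tor3a, Ifi35, Irf1 and Bst2. The other 21 had too few counts in at least 1 material. By TPM 12 rose and 7 fell in cells. The tumor count was 7 by TPM, 7 without vehicle library 3, 8 without YJ1206 library 3 and 9 without either YJ1206 library 1 or 2. Leukocyte markers, described further below, summed to 91.3 to 121 CPM in vehicle tumors and 143 to 166 in YJ1206 tumors. None of them was called, and Cd52 changed most. Of 12 macrophage markers 4 rose, while their sum overlapped between the groups. The part of host cells in the antiviral genes was not tested. The difference was called higher for 10 and lower for 10, and for 7 and 8 without the third tumor libraries, and the median difference changed sign with TPM (-0.24 with TMM, 0.21 with TPM). Isg15, a ubiquitin-like modifier, measured 1.28, 1.496 and 0.805 CPM in the DMSO libraries, 6.29, 4.825 and 5.15 in YJ1206-treated cells, 6.8, 11.1 and 10.5 in vehicle tumors and 17.1, 11.85 and 14.2 in YJ1206 tumors. It rose in cells (2.18 (SE 0.243, adjusted p = 5.96e-09)) and missed the threshold in tumors although the groups did not overlap (0.61 (SE 0.215, adjusted p = 0.0748)), a difference of -1.57 (SE 0.348, adjusted p = 0.0016). Irf7, a transcription factor of interferon genes, had 0, 2 and 0 counts in DMSO cells and 19, 13 and 14 in treated cells, at least 7.35-fold higher with DMSO set at the floor of 3 counts per library. Its tumor change was 0.65 (adjusted p = 0.217). Cxcl10, a chemokine that draws T cells, had 0, 0 and 1 counts in DMSO cells and 11, 18 and 25 in treated cells, at least 8.75-fold higher, and rose by 1.34 in tumors (adjusted p = 0.0489). Isg20, an exonuclease, changed by -0.5974 in cells and 0.06 in tumors, where it was not called. Stat2 and Irf9, transcription factors of the response to type I interferon, rose in tumors (1.28 and 0.53) and had -0.40 and -0.22 in cells, where neither was called. Eif2ak2, the double-stranded RNA-dependent kinase PKR, and Trim25 fell in cells and rose in tumors, with -0.93 and 0.27 for Eif2ak2. Ifnb1 had at most 2 counts in any library. Ccl5 had 0, 1 and 0 counts in DMSO cells and 2, 0 and 0 in treated cells, too few to test there. In tumors it had 10, 22 and 16 counts with vehicle and 27, 28 and 31 with YJ1206.

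Among 12 genes of the prostate luminal lineage, 8 rose and 3 fell in cells, and 5 rose and 1 fell in tumors. The cell counts were 6 and 4 by total counts and turned to 5 and 6 by TPM, and 3 rose in tumors without vehicle library 3. The difference was called higher for 4 and lower for 4, or for 3 and 4 without the third tumor libraries. Acpp, prostatic acid phosphatase, fell in cells and rose in tumors (-0.59 and 1.64). Krt8, a luminal keratin, measured 3.075, 3.15 and 2.77 CPM in the DMSO libraries, 32.1, 31.7 and 33.3 in YJ1206-treated cells, 82.6, 68.8 and 75.75 in vehicle tumors and 85.1, 95.7 and 91.02 in YJ1206 tumors. It rose in cells from a low level (3.43 (SE 0.105, adjusted p = 6.69e-21)) and had 0.26 in tumors (adjusted p = 0.0562), where the control level was already higher. Of 24 p53 targets, 14 rose and 6 fell in cells, and 3 rose and 4 fell in tumors. The cell counts were 11 and 8 by TPM, and the tumor counts are near the share of all genes tested (13.1% higher, 19.2% lower) and were 0 and 1 without library 3 of either group and 1 and 1 without YJ1206 library 1 or 2. Called differences were higher for 4 and lower for 11, with or without the third tumor libraries. Cdkn1a, the p21 inhibitor of cyclin-dependent kinases, rose by 1.82 in cells and had 0.057 in tumors, and Pmaip1, the proapoptotic protein Noxa, changed by 2.07 and -0.78. Of 281 zinc finger genes, 127 fell and 52 rose in cells, and 25 rose and 21 fell in tumors (6 and 23 with TPM). Both tumor shares lie below those of all genes tested (13.1% higher, 19.2% lower). Zinc finger genes that rose in tumors numbered 13, 38 and 6 without vehicle library 1, 2 or 3 and 12, 15 and 2 without YJ1206 library 1, 2 or 3. Those that fell numbered 8 without vehicle library 3, 11 without YJ1206 library 2 and 5 without YJ1206 library 3. Their difference was called higher for 104 and lower for 38, and for 92 and 32 without the third tumor libraries. Of 34 sterol and fatty acid genes, 16 rose and 15 fell in cells, a little above the shares of all genes tested (38.7% and 38.3%). With TPM 7 rose and 18 fell in cells. In tumors 1 rose and 11 fell. There 7 rose without vehicle library 2, and 7 fell without vehicle library 3 or YJ1206 library 1 and 6 without YJ1206 library 3. The difference was called higher for 5 and lower for 14, or for 4 and 13 without the third tumor libraries, and higher for 12 without vehicle library 2. Hmgcs1, of sterol synthesis, rose in cells (1.33) and fell in tumors (-0.77).

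In bulk tumor RNA, fewer cells of a type and less RNA per cell cannot be told apart, and host cells varied between the tumor libraries. The 9 skeletal muscle markers summed to 924, 30.9 and 567 CPM in vehicle tumors and 15.9, 14.4 and 15.7 in YJ1206 tumors, and all 8 that could be tested fell. Acta1, skeletal muscle actin and the lowest point of the scatter plot, changed by -6.66 in tumors. Vehicle library 2 thus stood apart from vehicle library 1, with library 3 between them. The 10 fibroblast markers summed to 2537, 1013 and 1912 CPM with vehicle and 697, 1570 and 1242 with YJ1206, and 1 of 10 fell. The 4 globin genes summed to 1262 to 1687 CPM with vehicle and 416 to 1099 with YJ1206. The 6 leukocyte markers summed to 91.3 to 121 CPM with vehicle and 143 to 166 with YJ1206, with none called. Of these sums Cd52 held 14.9, 59.1 and 32.2 CPM with vehicle and 69.8, 73.9 and 73.8 with YJ1206. Ptprc and Laptm5 overlapped between the groups, and Cd53, Coro1a and Rac2 did not. Of 12 macrophage markers 4 rose and none fell, with overlapping sums (314 to 483 CPM with vehicle, 369 to 492 with YJ1206). Lyz2, Ccr2 and Aif1 had -0.40, -0.33 and -0.15 and were not called. The 7 T cell markers summed to 10.8 to 14.7 CPM with vehicle and 13.6 to 16.3 with YJ1206, and 1 of the 4 tested rose (Cd8a, 0.74, adjusted p = 0.021). Of the other types, 1 of 4 neutrophil markers fell, 1 of 8 endothelial, 1 of 3 adipocyte and 1 of 5 epithelial markers rose, and none was called for dendritic, cytotoxic and NK, or B cells. In the cell libraries the same sums were at most 1.21 CPM for leukocytes, 7.22 for macrophages, 13.4 for fibroblasts and 7.30 for skeletal muscle, with 5 of 6, 8 of 12, 7 of 10 and 4 of 9 markers at or under 3 counts in every library. The part of host cells in the differences above was not tested. A further 4251 genes could be tested in tumors only, of which 527 were called (376 higher, 151 lower) and 1979 had at most 3 counts in every cell library.

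**Figure D5:**
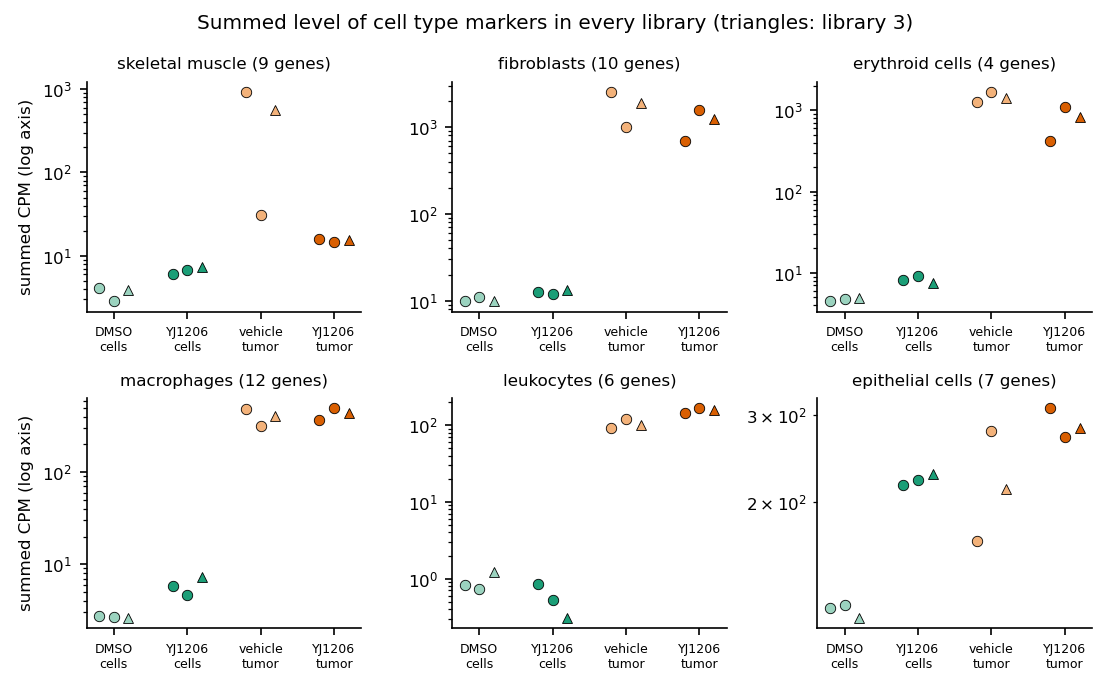
Summed CPM of the markers of 6 cell types on log axes in each of the 12 libraries, with library 3 of each group as a triangle. Skeletal muscle markers reach 924 and 567 CPM in 2 vehicle tumor libraries and stay at 14.4 to 15.9 in YJ1206 tumors, fibroblast markers vary within both tumor groups, and the host markers are low in cells.

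Gene length separated the effects weakly. Over 11304 genes with a span in the annotation, Spearman's rho of genomic span with the log2 fold change was -0.0575 in cells and -0.00588 in tumors, given as a description across genes. When genes were ranked by span into 10 bins, the median effect changed by -0.262 log2 units from the shortest to the longest bin in cells and by 0.0141 in tumors. On the TPM scale the cell values were smaller, with a rho of -0.0202 and a change of -0.146. With TMM the cell medians did not fall steadily with length. They were 0.159 in the shortest bin, -0.0954 in bin 3, 0.0293 in bin 5 and -0.103 in the longest.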

How the data were processed

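RNA was measured in 12 mouse libraries. The authors deposited an estimated count per gene and library, which was not scaled between libraries, and a TPM value, which they scaled for transcript length and to a fixed sum per library, for cells and tumors in separate tables. Submitters' processing notes name kallisto (version not given in the sources used here) and build GRCm38 (mm10). Estimated counts were rounded to whole numbers, since the test had been planned for counts, and genes were joined by Ensembl identifier without version. The 6 libraries of an experiment were fitted without the other 6 (edgeR 4.0.16 and R 4.3.3; filterByExpr, then TMM factors and the quasi-likelihood test), with Benjamini-Hochberg adjustment over all genes tested and a threshold of 0.05. The difference of effects was the interaction term of 1 fit over 12 libraries with TMM factors within each experiment. That fit shares 1 estimate of spread, although the biological coefficient of variation was 0.0322 in cells and 0.139 in tumors. The steps were tested on simulated data with independent libraries and a single spread per material, so that test cannot speak to tumor libraries that are not independent. Pairs of libraries of a group differed by more than sampling noise (the chi-square per gene was 1.94 to 2.90 for cells and 3.66 to 49.7 for tumors). At these depths 3 counts equal 0.151 to 0.230 CPM in cells and 0.112 to 0.194 in tumors, which covers counting error only.

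Named genes were 8 fixed genes, the 4 per class called in both experiments without overlap with the largest smaller change, the 3 per class called in 1 experiment with the difference called, each with at least 5 CPM in both, and members of the gene lists. Groups, genes and lists were chosen with earlier results of these data known. Alternatives were other scalings, filters, DESeq2 1.42.0, limma 3.58.1 on the deposited TPM or with voom weights, separate fits, a replicate block and omitted libraries. Promoters are from RefSeq (GRCm38.p6).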

Additional observations from a re-analysis of the deposited data

Results flagged for a closer look

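The effects in tumors and in cells were taken under the same contrast, and a test of their difference (edgeR's interaction term with Benjamini-Hochberg adjustment) called 7004 genes. Among the genes named for their class of change with at least 5 CPM in both materials, which leaves out the members of gene lists such as Egr1, the tumor effect was lower than the cell effect by the largest amount for Fos (-5.40), Ddit4 (-4.20), Nr4a1 (-4.05), Gadd45b (-3.54), Fam83d (-3.12), Npy (-3.09) and Cks2 (-2.54), all in log2 units. Of these, Fos, Ddit4 and Gadd45b are stress or growth signal genes that rose in cells and were not called in tumors, and the other 4 rose in cells and fell in tumors. The difference was -1.72 for Cdc20, -1.66 for Ube2c and -1.57 for Nusap1, 3 mitotic genes that fell in tumors and were not called in cells. The tumor effect was higher for Il17re (3.51), Klhdc7a (3.31), Pla2r1 (3.15), Trpm4 (3.03), Tnxb (2.46), Ctsh (2.34) and Itih2 (2.26), all of which fell in cells. It was also higher for Scnn1a (1.57), Gpr155 (1.41) and Slc41a2 (1.14), which rose in tumors and were not called in cells. These calls of the difference held without the third tumor libraries, where the tumor effect itself was called for no gene other than Egr1. Among genes that moved the same way in both materials the difference was -0.78 for Stom, -0.71 for Ptgs2 and 1.03 for Cdkn3, and these 3 calls were lost without those libraries. Material, duration and route of treatment, and host cells, cannot be told apart in any of these differences.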

How the results depend on the processing

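The number of called differences (7004) stayed within 1.5 times under all alternatives run: 6970 with DESeq2, 7471 with 2 separate fits, 6937 with voom weights per material, 6498 on log2(TPM + 1), 6601 to 7490 with each library left out, 6072 with tumor libraries 1 and 2 only, and, chosen after seeing the data, 5168 with voom weights and 6164 with separate fits on those libraries. The cell count (8995) was 8622 to 8824 with each library left out. The tumor count (4177) was 1877 to 5724, with 1877 without YJ1206 library 3, 1938 without vehicle library 3, 2739 without YJ1206 library 2, and 1 with tumor libraries 1 and 2 only. With each library left out, 328 to 1029 genes rose in both, 489 to 1228 fell in both, 169 to 632 rose in tumors and fell in cells, and 400 to 1016 did the reverse. With tumor libraries 1 and 2 only these counts were 0, 0, 0 and 1. Genes higher in both numbered 304 on log2(TPM + 0.1) and 309 on log2(TPM + 1), and genes lower in tumors and higher in cells 483 and 486. Upper quartile scaling gave 696 genes higher in tumors and lower in cells and 528 of the reverse. Of called genes, the higher share in cells was 49.7% with TMM factors, 36.1% by total counts and 29.2% on the TPM scale, and in tumors 44.4%, 44.7% and 34.5%, or 59.2% by upper quartiles.

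Directions turned for the Cdk12 difference (0.00875 on log2(TPM + 0.1), 0.00964 on log2(TPM + 1)) and for 6 cell effects on the same scales: Exo1 (-0.0215, -0.0211), Fkbp5 (-0.18, -0.179), Foxa1 (-0.0789, -0.0784), Orc6 (-0.0592, -0.0589), Psca (-0.0398, -0.0395) and Scd1 (-0.003, -0.00292). Fkbp5 also had -0.0294 with total counts. The cause was not tested. Same-numbered treated and control libraries did not deviate together (correlations -0.0455 to 0.0644), so the number names a library only, and a fit with it as a replicate block called 8905 genes in cells, 3478 in tumors and 6854 differences, and 640, 840, 358 and 702 genes in the 4 classes.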
